A study of Homo sapiens with 6 samples.

Results

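ATP-binding cassette (ABC) genes encode a family of ATP-driven membrane transporters and a few relatives that are not transporters. They were taken as all rows of the deposited count table whose symbol is ABC, a subfamily letter from A to G and a number. The rule found 46 of 26485 rows: 12 in subfamily A, 9 in B, 12 in C, 4 in D, 1 in E, 3 in F and 5 in G. The symbol rule leaves out CFTR, TAP1 and TAP2, which belong to the family under other names. The study sequenced polyadenylated RNA of HuCCT1, a line established from a human cancer of the bile ducts (cholangiocarcinoma), as 3 libraries (a, b and c) of CRISPR clone 22, labelled AQP1 KO, and 3 libraries (a, b and c) of CRISPR clone 1, labelled WT. Both clones grew on plastic in DMEM-F12 with serum, glutamine and antibiotics. Each genotype is 1 clone, so a difference between genotypes cannot be told apart from a difference between clones. Whether a, b and c were grown separately is not stated, and the p-values therefore reflect library-to-library spread that may be only technical. In bulk RNA, fewer cells of a type and less RNA per cell cannot be told apart.

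Most ABC proteins bind and split ATP in paired nucleotide-binding domains and use the energy to move a substrate across a membrane. In bile duct cells and hepatocytes they export drugs, glutathione and glucuronide conjugates, bile salts and phospholipid. ABCA1 and ABCG1 send cholesterol out of cells and are known targets of the liver X receptors (LXR), nuclear receptors that sense oxysterols. Subfamily D serves peroxisomes and lysosomes, several B members sit in mitochondria, and subfamilies E and F lack membrane domains and act on ribosomes and translation.

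The libraries held 36925338 to 41724447 counts, and a count of 3 equals 0.0719 to 0.0813 CPM (the counts of a gene scaled to a library of 1000000 counts). AQP1, the targeted water channel gene, had 10, 7 and 7 counts in KO libraries a, b and c, against 2, 8 and 10 counts in WT libraries a, b and c, so the counts do not check the genotype labels. Of the labelled cell type's markers, 4 of 5 fell in the KO clone, where 37.2% of all tested genes fell and 37.1% rose. The 5 markers summed to 1798 to 1831 CPM in KO and 3085 to 3161 CPM in WT. The keratin gene KRT19 fell by 3.07 on the log2 scale and the epithelial adhesion gene EPCAM by 3.63, and CFTR did not pass. SOX9 fell by 1.14. The keratin gene KRT7, the highest of these markers at a mean of 1613 CPM in KO and 1751 CPM in WT, fell by 0.17. Of 6 hepatocyte markers, SERPINA1 alone was tested and rose, with the list's sum at 68.5 to 74.7 CPM in KO and 52.0 to 55.8 CPM in WT, and TTR was at 0 in all libraries. Of 4 immune markers 1 of 2 tested rose, CD68, with sums of 203 to 210 CPM in KO and 107 to 112 CPM in WT, while PTPRC was at 0. Endothelial markers summed to 1.86 to 2.79 CPM in KO and 1.70 to 2.10 CPM in WT, and neither of the tested ones passed. Of 4 fibroblast markers, DCN rose, having reached the filter's level through KO alone. COL1A1 averaged 9.07 CPM in KO and 9.89 CPM in WT and did not pass. COL1A2 was near the floor in both clones, at 0 in KO and at 2, 0 and 4 counts in WT libraries a, b and c. The 4 markers summed to 8.43 to 12.5 CPM in KO and 9.57 to 10.8 CPM in WT. The part of these markers in the results below was not tested.

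To show what lies upstream of members that moved in opposite directions, the 250 bases before the transcription start are given for a sterol exporter and a nucleotide exporter that rose (ABCA1, ABCC4) and for a neighbouring pair of genes that fell (ABCC5, ABCF3). Sequences are RefSeq, GRCh38.p14, 5′ to 3′ on the strand of the gene. Capitals mark matches to 4 motifs on either strand: an LXR-type direct repeat (AGGTNA and NGGTCA, 4 bases apart), the antioxidant response core (TGACNNNGC), the GC box (GGGCGG) and the TATA box (TATAAA).
ABCA1 (chr9:104928156-104928405, minus strand): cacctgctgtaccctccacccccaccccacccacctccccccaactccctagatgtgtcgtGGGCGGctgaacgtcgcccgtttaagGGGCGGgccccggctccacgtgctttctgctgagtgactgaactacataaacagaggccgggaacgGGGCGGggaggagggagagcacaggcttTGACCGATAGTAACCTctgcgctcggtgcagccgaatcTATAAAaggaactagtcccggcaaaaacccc
ABCC4 (chr13:95301452-95301701, minus strand): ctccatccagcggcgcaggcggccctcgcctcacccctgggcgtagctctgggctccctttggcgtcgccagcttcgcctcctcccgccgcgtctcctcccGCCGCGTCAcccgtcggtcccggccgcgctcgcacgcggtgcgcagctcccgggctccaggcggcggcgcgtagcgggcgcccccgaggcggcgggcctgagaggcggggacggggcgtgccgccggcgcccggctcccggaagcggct
ABCC5 (chr3:184017885-184018134, minus strand): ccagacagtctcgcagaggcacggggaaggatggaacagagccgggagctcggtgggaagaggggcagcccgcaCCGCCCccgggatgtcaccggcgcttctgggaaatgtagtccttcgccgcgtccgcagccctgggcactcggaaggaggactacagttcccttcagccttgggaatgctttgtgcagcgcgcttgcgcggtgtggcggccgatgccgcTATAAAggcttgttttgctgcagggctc
ABCF3 (chr3:184185949-184186198, plus strand): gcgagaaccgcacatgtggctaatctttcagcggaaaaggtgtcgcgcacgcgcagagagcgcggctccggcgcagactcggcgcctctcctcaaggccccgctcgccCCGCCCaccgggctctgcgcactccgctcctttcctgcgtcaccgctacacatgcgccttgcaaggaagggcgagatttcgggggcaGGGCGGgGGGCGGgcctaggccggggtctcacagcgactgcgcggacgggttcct

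The ABCA1 window held the direct repeat on the opposite strand, 54 to 69 bases before the start, as TGACCGATAGTAACCT. The letters of this motif were chosen with that element known. It is the LXR element described for the human ABCA1 gene. The same letters occurred in 28 of 35116 promoter windows of this length (0.0797%). Of 46 members, 35 matched the promoter table, with 53 windows, and ABCA1 alone of those 35 held the repeat. ABCC3, ABCG1 and ABCC1 were not among the 35. The antioxidant response core, which binds the transcription factor NRF2, lay 141 to 149 bases before the start of ABCC4. It stood in 9 of 53 member windows (17.0%) and in 10.9% of all windows. Those windows belonged to ABCA2, ABCC4 and ABCD4, which rose, ABCB6, which fell, and ABCA3, ABCB9, ABCC10 and ABCG4, which did not pass. The untested ABCF1 held it too. The TATA box stood in 6 of 53 member windows (11.3%) and 10.7% of all windows, and the GC box in 25 of 53 (47.2%) and 42.6%. ABCC5 held 1 GC box and 1 TATA box, and ABCF3 held 3 GC boxes. Searched but not capitalised, the ZEB1-type E-box CACCTG stood in 12 of 53 member windows (22.6%) and 17.5% of all windows, and the palindromic E-box CACGTG in 9 of 53 (17.0%) and 6.34%. These matches are letters in a window and describe no binding.

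Of the 46 genes, 31 had enough counts to be tested and 15 did not. In edgeR's quasi-likelihood test over 14405 genes, 13 of the 31 rose, 8 fell and 10 did not pass at a Benjamini-Hochberg (BH) adjusted p of 0.05. The members called were therefore 67.7% of those tested, against 74.4% of all tested genes (37.1% higher and 37.2% lower). These shares are also the background for every marker list above and for every subfamily, role, gene list and set of neighbours counted below. Changes of 2-fold or more that passed were seen in 10 of 31 members (32.3%), 7 higher and 3 lower, against 22.8% of all tested genes (13.7% higher and 9.05% lower). KO and WT libraries did not overlap in 23 of 31 members (74.2%), against 77.3% of all tested genes. The family as a whole was thus near the background in how many genes were called. The median log2 fold change (KO over WT) of the tested members was 0.16, against 0.0056 over all tested genes. The median size of the change, whatever its direction, was 0.66 in the members and 0.46 in all tested genes. The 4 members ABCG1, ABCA12, ABCB1 and ABCG4 reached the filter's level of counts in every library of KO alone. For these a higher KO value was built into being tested, and their p-values below carry that limit. ABCG1, ABCA12 and ABCB1 are among the 7 rises of 2-fold or more. With a minimum of 1 CPM in 3 libraries, 8 of 28 tested members passed at 2-fold or more, 5 higher (ABCG1 among them) and 3 lower. Of all genes 2560 of 12714 did so.

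**Figure D1:**
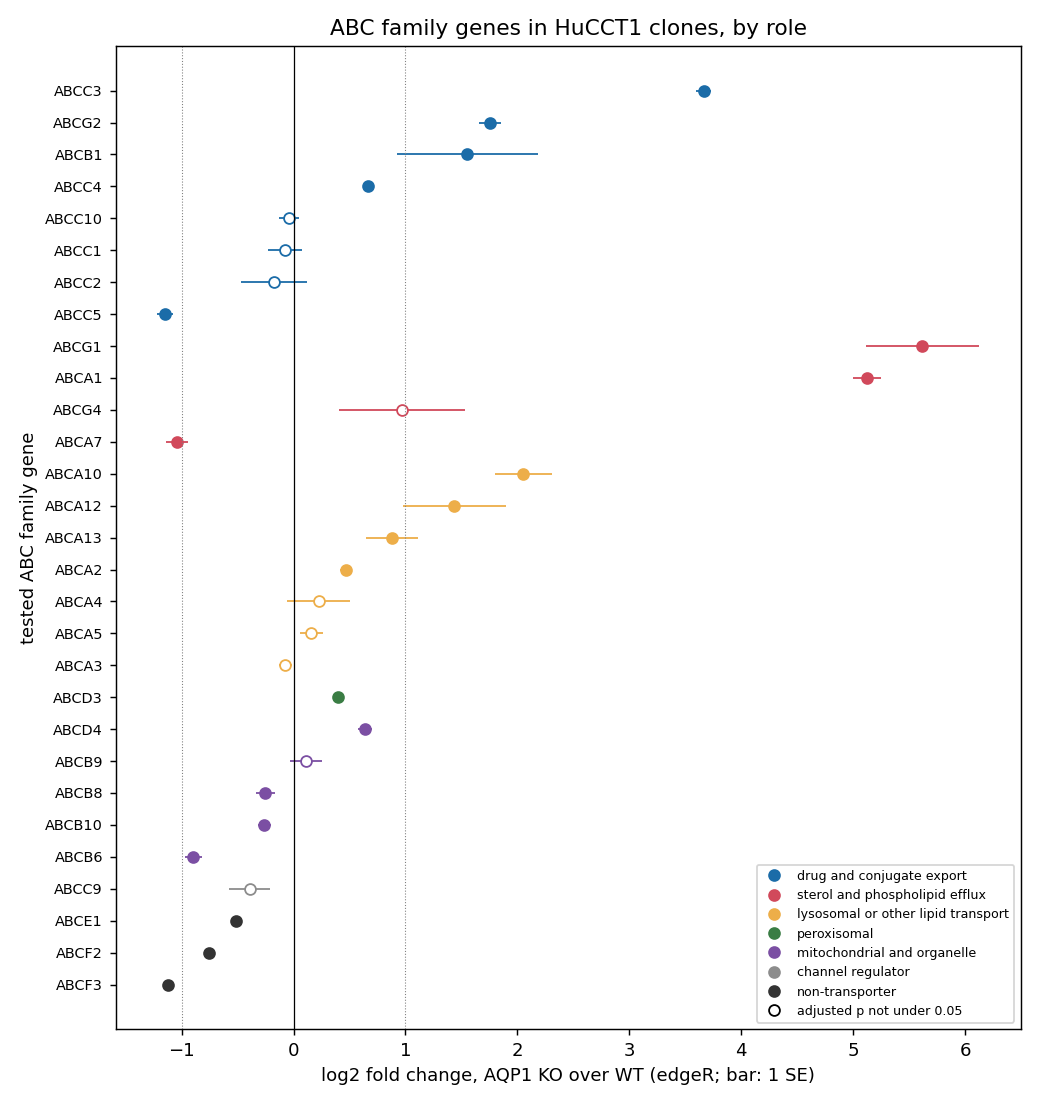
Log2 fold change (AQP1 KO over WT, horizontal axis) of tested ABC genes, grouped and coloured by role, with bars of 1 SE from edgeR. Filled points passed an adjusted p of 0.05, open points did not, and dotted lines mark a 2-fold change. ABCG1, ABCA1 and ABCC3 stand far to the right, and ABCC5, ABCF3 and ABCA7 lie just beyond 2-fold on the left.

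Exporters of drugs and conjugates split. Of 12 such genes 8 were tested, 4 rose (ABCC3, ABCG2, ABCB1, ABCC4), 1 fell (ABCC5) and 3 did not pass (ABCC1, ABCC2, ABCC10). Their summed level was 232 to 238 CPM in KO libraries and 119 to 129 CPM in WT libraries, a net gap. ABCC3 (mean 95.7 CPM in KO and 7.26 CPM in WT) and ABCC4 (80.6 CPM in KO and 49.0 CPM in WT) widened it. ABCC5 (19.0 CPM in KO and 40.5 CPM in WT) narrowed it. ABCC3 encodes the basolateral pump for glucuronide and bile acid conjugates in bile duct cells (chromosome 17, 50634881 to 50692253). It had 95.4, 94.1 and 97.6 CPM in KO libraries a, b and c, against 7.52, 6.46 and 7.79 CPM in WT libraries a, b and c. Every KO library was above every WT library by more than 86 CPM, and ABCC3 was 12.7-fold higher in KO (log2 fold change 3.67, SE 0.068, edgeR quasi-likelihood with BH, adjusted p = 1.66e-14).

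ABCG2, the breast cancer resistance protein gene (chromosome 4, 88090264 to 88231626), exports many drugs, urate and porphyrins. It had 18.3, 16.9 and 19.9 CPM in KO libraries a, b and c, against 5.82, 4.99 and 4.89 CPM in WT libraries a, b and c. The groups did not overlap, and ABCG2 was 3.38-fold higher in KO (log2 fold change 1.76, SE 0.099, edgeR with BH, adjusted p = 1.56e-09). ABCC4, an exporter of cyclic nucleotides and prostaglandins (chromosome 13, 95019835 to 95301451), had 83.3, 81.8 and 76.6 CPM in KO against 50.7, 47.2 and 49.1 CPM in WT. It was the higher in all 3 KO libraries and rose 1.59-fold (log2 fold change 0.66, SE 0.047, edgeR with BH, adjusted p = 1.81e-08).

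ABCB1, the gene of the multidrug pump P-glycoprotein (chromosome 7, 87503017 to 87713295), was scarce. It had 43, 28 and 10 counts in KO libraries a, b and c, against 17, 8 and 2 counts in WT libraries a, b and c. The groups overlapped, since KO library c lay below WT library a in CPM. It passed at a log2 fold change of 1.55 (SE 0.63, edgeR with BH, adjusted p = 0.0388). The call was lost without KO library a (adjusted p = 0.19), KO library b (0.0692), WT library b (0.099) or WT library c (0.135). Without WT library a the log2 fold change was 2.40.

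ABCC5, an exporter of nucleotide-like anions (chromosome 3, 183919934 to 184017884), was lower in the KO clone. It had 17.8, 18.02 and 21.2 CPM in KO libraries a, b and c, against 41.8, 41.4 and 38.3 CPM in WT libraries a, b and c. The groups did not overlap (log2 fold change -1.15, SE 0.071, edgeR with BH, adjusted p = 4.14e-09). ABCC1, a broad glutathione-conjugate pump, had 7.05, 7.80 and 7.45 CPM in KO and 8.49, 8.64 and 5.51 CPM in WT. WT library c stood below the other 2 WT libraries and below all KO libraries. The log2 fold change was -0.08 (SE 0.15, adjusted p = 0.674 in the same test), and it took the other sign without WT library a (0.012) or b (0.028). ABCC2, the apical conjugate pump that secretes into bile, had 1.27, 0.807 and 1.00 CPM in KO and 1.04, 1.33 and 0.983 CPM in WT, with overlapping groups (log2 fold change -0.17, SE 0.29, adjusted p = 0.611). ABCC10, a lipophilic drug pump, averaged 12.3 ± 0.920 CPM in KO and 12.2 ± 0.849 CPM in WT (SD, n = 3 each).

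**Figure D2:**
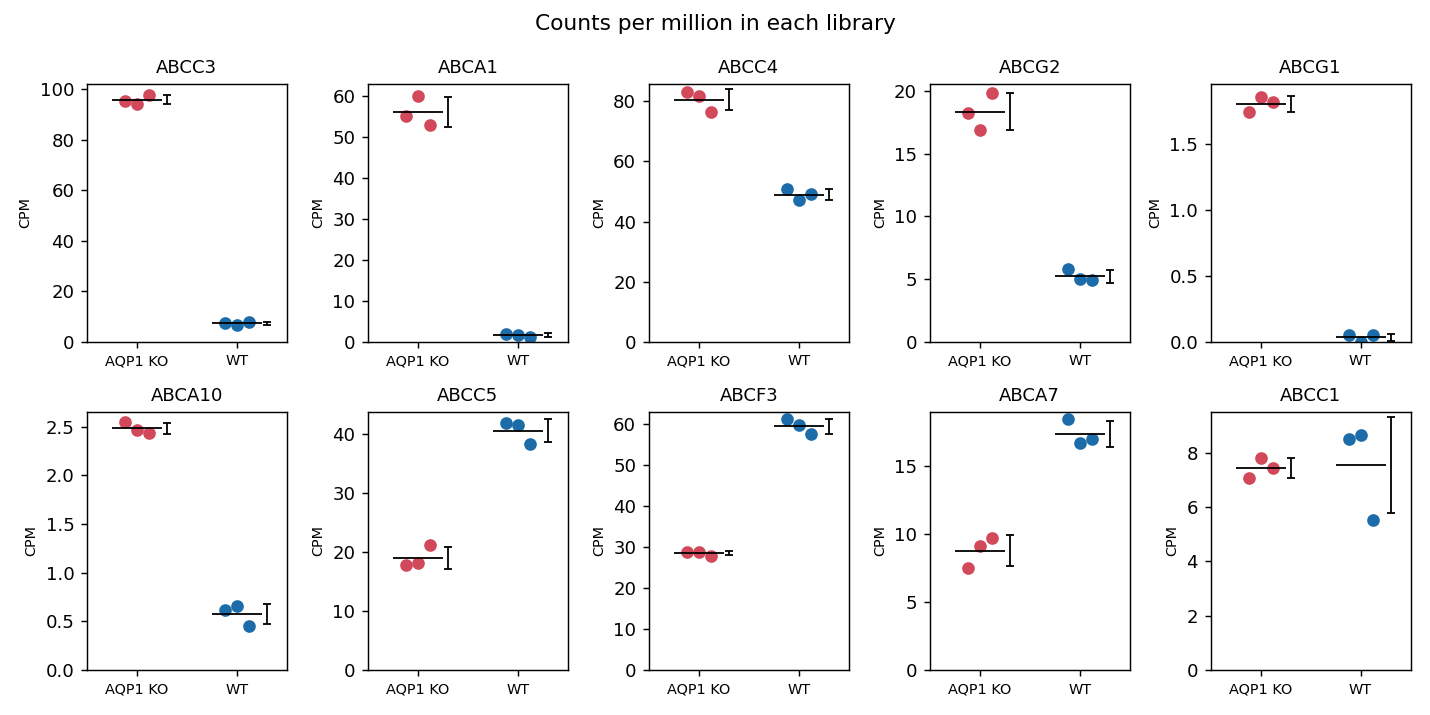
CPM of 10 ABC genes in each library, with AQP1 KO (red, libraries a, b and c from left to right) left of WT (blue). Black lines are group means, bars are 1 SD over 3 libraries, and each axis starts at 0. In ABCC1 the WT libraries straddle the KO libraries, and in the other 9 genes the groups are apart.

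The sterol exporters held the largest rises. Of 6 genes of sterol and phospholipid efflux 4 were tested, and ABCA1 and ABCG1 rose, ABCA7 fell and ABCG4 did not pass. ABCA1 hands cholesterol and phospholipid to apolipoprotein A-I (chromosome 9, 104781006 to 104928155). It had 55.3, 60.2 and 53.0 CPM in KO libraries a, b and c, against 1.95, 1.62 and 1.08 CPM in WT libraries a, b and c. The KO libraries were all above 50 CPM and the WT libraries all below 2 CPM, a 34.9-fold difference (log2 fold change 5.13, SE 0.12, edgeR with BH, adjusted p = 2.59e-13).

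ABCG1 passes cholesterol to high-density lipoprotein (chromosome 21, 42199689 to 42297244). It had 71, 76 and 67 counts in KO libraries a, b and c, against 2, 0 and 2 counts in WT libraries a, b and c. The groups did not overlap, and WT was at or near the floor in each library. The ratio of counts summed over each group, scaled by the summed library totals, was 55.7 with a 95% counting interval of 21.5 to 206. The fitted log2 fold change was 5.62 (SE 0.51, edgeR with BH, adjusted p = 2.27e-07). ABCA7, a phospholipid transporter related to ABCA1, went the other way, with 7.50, 9.12 and 9.67 CPM in KO against 18.4, 16.6 and 17.0 CPM in WT. All 3 KO libraries were below all WT libraries (log2 fold change -1.04, SE 0.097, edgeR with BH, adjusted p = 3.01e-07), and the fall was just under 2-fold with library totals alone as the scaling (-0.99), without KO library a (-0.93) and marginally without WT library a (-0.999937). ABCG4, a sterol exporter of the nervous system, had 13, 16 and 18 counts in KO and 10, 2 and 12 counts in WT and did not pass (log2 fold change 0.97, SE 0.56, adjusted p = 0.135). The sterol exporter pair of gut and bile was at or near 0: ABCG5 had 0 counts in KO and 1 count in WT, and ABCG8 had 0 counts in all 6 libraries.

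Nuclear receptor and LXR target genes outside the family were read beside ABCA1 and ABCG1. NR1H3, which encodes LXR alpha, had 14.4 ± 1.18 CPM in KO and 9.11 ± 0.413 CPM in WT (SD, n = 3 each) and rose by 0.61 on the log2 scale (SE 0.088, edgeR with BH, adjusted p = 2.55e-05). NR1H2, the LXR beta gene, rose by 0.24 (SE 0.057), at 29.5 ± 1.49 CPM in KO and 24.1 ± 0.491 CPM in WT. Of 8 LXR targets outside the family 5 rose, 1 fell and 2 did not pass, with a median log2 fold change of 0.63, where 37.1% of all tested genes rose and 37.2% fell. LPCAT3, which remodels phospholipids, rose by 1.12 (169.9 ± 2.19 CPM in KO and 75.3 ± 1.67 CPM in WT). PLTP, the phospholipid transfer protein gene, rose with 20, 21 and 15 counts in KO against 0, 2 and 0 counts in WT, and reached the filter through KO alone. SMPDL3A, a phosphodiesterase gene, fell by 0.58. SREBF1, which like NR1H3 stands on this list and the next, averaged 62.9 ± 1.43 CPM in KO and 61.0 ± 1.65 CPM in WT and did not pass (adjusted p = 0.872).

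Of 20 nuclear receptors and other factors that control ABC genes, 14 were tested, 5 rose, 4 fell and 5 did not pass. NFE2L2, which encodes NRF2, rose by 0.43 (207 ± 4.48 CPM in KO and 148 ± 2.56 CPM in WT). PPARD, a fatty acid sensor gene, fell by 1.26, and SREBF2, whose product drives cholesterol synthesis, fell by 1.199. Receptors for bile acids and drugs were too low to be tested: NR1H4 (FXR) had 0, 0 and 1 counts in KO against 0, 0 and 4 counts in WT, and NR1I2 (PXR) had 8, 1 and 0 counts in KO against 4, 6 and 0 counts in WT.

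Of 10 lysosomal and other lipid transporters, all in subfamily A, 7 were tested, 4 rose and 3 did not pass. ABCA10, a member of a gene cluster on chromosome 17 (69148007 to 69244848), had 2.55, 2.47 and 2.44 CPM in KO libraries a, b and c, against 0.617, 0.654 and 0.455 CPM in WT libraries a, b and c. The groups did not overlap (log2 fold change 2.05, SE 0.26, edgeR with BH, adjusted p = 6.33e-06). ABCA10 and its cluster neighbour ABCA5 share 538 bases in RefSeq, so reads there could go to either gene. ABCA5 did not pass, at 9.89 ± 0.481 CPM in KO and 8.53 ± 0.649 CPM in WT (adjusted p = 0.167). In the same cluster ABCA8 had 5, 5 and 6 counts in KO libraries a, b and c and 0 counts in all 3 WT libraries. With WT set to a floor of 3 counts over the group and the KO counts taken as exact, ABCA8 was 5.55-fold higher. It was too low for the filter and passed when no filter was used (adjusted p = 0.0116, edgeR with BH). ABCA6 had 16 counts in KO and 4 in WT, and ABCA9 had 0 counts in all 6 libraries.

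ABCA12, which loads glucosylceramide in skin cells, had 33, 20 and 18 counts in KO libraries a, b and c, against 8, 12 and 6 counts in WT libraries a, b and c. KO was higher in all 3 libraries (log2 fold change 1.44, SE 0.46, edgeR with BH, adjusted p = 0.0118), and the call was lost without KO library a (adjusted p = 0.0684) or WT library c (0.053). The endolysosomal lipid transporter ABCA2 rose by 0.47 (66.8 ± 3.43 CPM in KO and 46.6 ± 1.45 CPM in WT) and ABCA13 by 0.88 (2.36 ± 0.486 CPM in KO and 1.24 ± 0.0907 CPM in WT). ABCA3, which fills lung lamellar bodies, had 33.2 ± 0.682 CPM in KO and 33.7 ± 1.88 CPM in WT and did not pass (adjusted p = 0.268). ABCA4, a retinal transporter, did not pass either (adjusted p = 0.481).

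Subfamily D rose in all 3 tested members, none by 2-fold, where 37.1% of all tested genes rose. ABCD3, a peroxisomal importer of branched-chain and bile acid precursors (chromosome 1, 94385131 to 94518663), had 195, 188 and 194 CPM in KO against 145, 143 and 135 CPM in WT (log2 fold change 0.39, SE 0.031, adjusted p = 5.89e-08). The groups did not overlap. ABCD4, which works with lysosomal vitamin B12 export, rose by 0.64 (21.5 ± 0.655 CPM in KO and 13.3 ± 0.421 CPM in WT). ABCD2, a peroxisomal fatty acid importer gene, had 16, 10 and 17 counts in KO and 0, 0 and 6 counts in WT. It was too low for the filter and passed when no filter was used (log2 fold change 2.79, adjusted p = 0.0111).

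Of 16 peroxisomal genes listed beside them, 9 rose, 6 fell and 1 did not pass, with a median of 0.21. ACOX2, an oxidase of branched and bile acid side chains, rose by 1.35 and CAT, the catalase gene, by 0.90. SLC27A2, an acyl-CoA synthetase gene, fell by 1.48 and ACAA1, a peroxisomal thiolase gene, by 0.77.

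No mitochondrial or other organelle member changed by 2-fold. Of 6 genes, all tested, 1 rose (ABCD4), 3 fell and 2 did not pass. ABCB6, a porphyrin transporter, fell by 0.90 (13.2 ± 1.09 CPM in KO and 23.6 ± 1.61 CPM in WT, adjusted p = 1.13e-07). ABCB10, an inner membrane protein needed for heme synthesis, fell by 0.26 (33.0 ± 1.17 CPM in KO and 38.2 ± 0.248 CPM in WT). ABCB8, also of the inner membrane, fell by 0.25 (adjusted p = 0.0158), and lost its call without KO library b (adjusted p = 0.073) or WT library c (0.097) and with library totals alone as the scaling (0.0503). The lysosomal peptide transporter gene ABCB9 did not pass (5.41 ± 0.412 CPM in KO and 4.82 ± 0.616 CPM in WT). Of 20 heme and iron-sulfur genes 11 rose and 7 fell, with a median of 0.13. ALAD rose by 0.83 and FECH, which inserts iron into heme, by 0.75, while the heme exporter gene FLVCR1 fell by 0.92.

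The 3 members that are not transporters and could be tested fell, as did 37.2% of all tested genes. ABCE1, which splits ribosomes after translation ends (chromosome 4, 145098311 to 145129524), had 300.3, 298 and 302 CPM in KO libraries a, b and c, against 406, 422 and 412 CPM in WT libraries a, b and c. The groups did not overlap (log2 fold change -0.52, SE 0.024, edgeR with BH, adjusted p = 1.92e-10). ABCF3, a soluble ATPase of the translation machinery (chromosome 3, 184186199 to 184194005), had 28.8, 28.8 and 27.9 CPM in KO against 61.3, 59.8 and 57.6 CPM in WT. It too showed no overlap (log2 fold change -1.12, SE 0.053, edgeR with BH, adjusted p = 2.16e-10). ABCF2 fell by 0.76 (89.2 ± 1.85 CPM in KO and 145 ± 6.99 CPM in WT). Together these genes summed to 417 to 418 CPM in KO libraries and 616 to 620 CPM in WT libraries. Of 12 partner genes of ribosome recycling and initiation, 5 rose, 5 fell and 2 did not pass, with a median of -0.014. EIF2S1 fell by 0.445 and the release factor gene GSPT1 by 0.28, while LTN1 rose by 0.47 and EIF2S3 by 0.44.

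**Figure D3:**
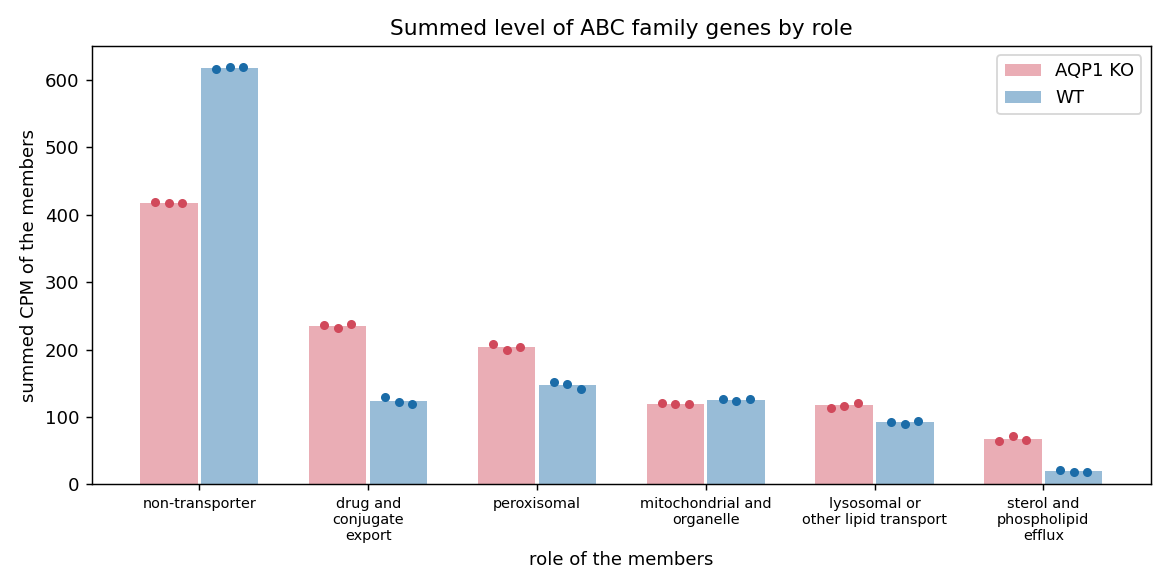
Summed CPM of the members in each role, with AQP1 KO (red) left of WT (blue). Bars are means and points are the 3 libraries of each group. Sums are not divided by gene length, so bars are to be compared within a role. The sterol efflux sum is 64.9 to 71.6 CPM in KO and 18.3 to 20.7 CPM in WT, and the non-transporter sum is 417 to 418 CPM in KO and 616 to 620 CPM in WT.

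ABCF1, a translation initiation factor gene of the same subfamily (chromosome 6, 30571442 to 30591522), had 1, 7 and 3 counts in KO libraries a, b and c, against 3, 3 and 2 counts in WT libraries a, b and c. It lies in the region of the major histocompatibility complex. Of 56 other protein-coding genes of the table within 1 Mb of it, 37 (66.1%) averaged under 0.25 CPM, against 32.2% of 18980 protein-coding genes. That limit was chosen after the values were seen. How reads that map to more than 1 place were treated is not given in the sources used here, so low counts of ABCF1 and its region need not mean low expression, and this was not tested. Of 7 family genes in the table that the symbol rule leaves out, pseudogenes included, 3 were tested, TAP2 fell and CFTR and ABCA11P did not pass. TAP1, a peptide transporter gene of the same region, had 1 count in WT library c and 0 in the other libraries. TAP2, its partner, had 123, 53 and 52 counts in KO against 129, 105 and 408 counts in WT. WT library c stood far above the other libraries. TAP2 was called lower (log2 fold change -1.49, SE 0.45, edgeR with BH, adjusted p = 0.00888), but not without WT library c (-0.64, adjusted p = 0.104) nor by DESeq2 (adjusted p = 0.063). CFTR, the chloride channel of the family, did not pass, at 1.94 ± 0.190 CPM in KO and 1.83 ± 0.0805 CPM in WT (adjusted p = 0.895).

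Channel regulators, bile exporters and the remaining low members gave no call in the filtered fit. ABCC9, a sulfonylurea receptor gene of ATP-sensitive potassium channels, had 3.28, 3.10 and 4.69 CPM in KO and 4.64, 5.37 and 3.95 CPM in WT. The groups overlapped (log2 fold change -0.39, SE 0.19, adjusted p = 0.0718), and it passed as lower without KO library c (-0.58, adjusted p = 0.0108) or WT library c (-0.50, adjusted p = 0.0395). Its channel partners KCNJ8 and KCNJ11 were too low to be tested. ABCC8, the other receptor, had 0 counts throughout, as did ABCB5, a relative of P-glycoprotein, and ABCC13. For each of the 5 genes at 0 in all libraries, the counts allow up to 0.0813 CPM in the shallowest library. ABCB11, the bile salt export pump of hepatocytes, had 2 counts in KO and 4 in WT over the group. ABCB4, which flips phosphatidylcholine into bile, had 1, 8 and 0 counts in KO against 0, 6 and 2 counts in WT, with overlapping groups. ABCC6 had 20 counts in KO and 3 in WT, and is uncertain because the near-identical copies ABCC6P1 and ABCC6P2 can share its reads. ABCC11 had 12 counts in KO and 3 in WT, and ABCC12 had 6 in KO and 0 in WT.

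Per kilobase of exon (GENCODE 29, all exons of a gene merged) the order of levels changed between the clones. ABCE1 was first in both, at 47.9 CPM per kb in KO and 66.0 CPM per kb in WT. ABCD3 followed in KO (25.3 CPM per kb in KO and 18.6 in WT) and ABCF2 in WT (21.4 CPM per kb in KO and 34.8 in WT). ABCC3 was the 4th of 31 tested members in KO, at 9.96 CPM per kb, and the 19th in WT, at 0.755 CPM per kb. ABCA1 was the 10th in KO (4.95 CPM per kb) and the 24th in WT (0.137 CPM per kb). ABCC3 and its neighbour in the KO order, ABCC4 (9.33 CPM per kb), lay close together.

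Neighbouring genes differed between the clones around several members. For each member the tested genes within 5 Mb on each side were taken. ABCC5 and ABCF3 lie 168 kb apart on chromosome 3, and their surroundings were lower too, with medians of -0.83 over 65 genes and -0.81 over 64 genes. Of these neighbours, 52 of 65 had a higher log2 fold change than ABCC5, and 48 of 64 a higher one than ABCF3. Around ABCC5 46 neighbours fell and 9 rose. EIF2B5, the next tested gene beyond ABCC5, fell by 1.13, and PARL, on its other side, by 1.07. ABCF2 and ABCB8 lie 164 kb apart on chromosome 7, where the medians were -0.58 and -0.63 over 50 genes each, and 35 neighbours fell while 5 rose. ABCF2 fell by 0.76, with 31 of 50 neighbours above it, and ABCB8 by only 0.25, with 16 of 50 above it and 34 below. ABCC4 rose by 0.66 among 23 neighbours with a median of 0.65.

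ABCA1, ABCG1, ABCC3 and ABCG2 stood apart from their neighbours. ABCA1 had a higher log2 fold change than all 27 neighbours, whose median was 0.13. ABCG1 was exceeded by 1 of 62 neighbours (median 0.077) and ABCG2 by 1 of 27 (median -0.020). ABCC3 rose where its surroundings were lower: the median of 79 neighbours was -0.38, 49 fell and 15 rose, and 3 exceeded ABCC3. ABCB1 had a positive value in a stretch of chromosome 7 where 22 of 30 neighbours fell (median -0.73). For ABCG1 and ABCB1 a higher KO value was built into being tested, so their places among tested neighbours carry that limit. ABCC9 had the lowest value among its 25 neighbours, 20 of which rose (median 0.59). These are descriptions of position, and whether gene dosage differs between the clones was not tested.

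**Figure D4:**
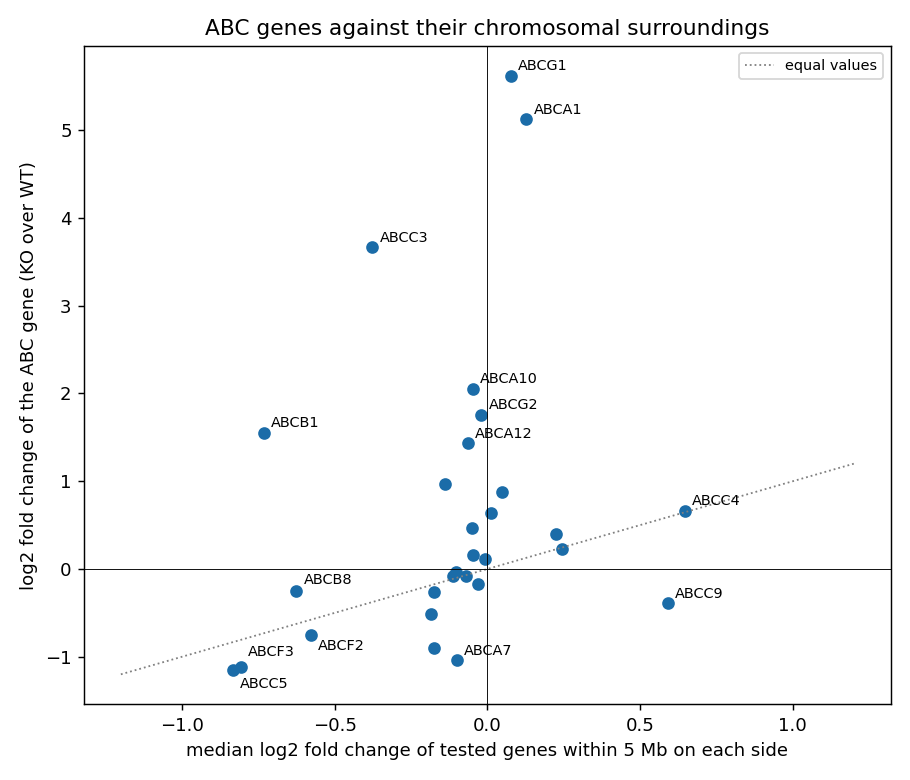
Log2 fold change (KO over WT) of each tested ABC gene against the median of the tested genes within 5 Mb on each side. The dotted line marks equal values. ABCC5, ABCF3, ABCF2 and ABCC4 lie near the line, at neighbour medians of -0.83, -0.81, -0.58 and 0.65, while ABCG1, ABCA1 and ABCC3 lie far above it. ABCG1 reached the filter's level through KO alone.

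Genes that feed or load the exporters were read from lists of their own. Of 25 conjugation genes 17 were tested, 10 rose, 3 fell and 4 did not pass, with a median of 0.24, a called share near the 74.4% of all tested genes. The sulfotransferase genes SULT1C2 (17.97 ± 0.432 CPM in KO and 2.62 ± 0.519 CPM in WT) and SULT1A1 (14.7 ± 0.580 CPM in KO and 2.88 ± 0.584 CPM in WT) rose most, by 2.72 and 2.30 on the log2 scale. SULT1A1 has near-identical copies and is uncertain for that reason. MGST3 fell by 0.39 and the glutathione synthetase gene GSS by 0.17. Of 20 uptake and bile acid carriers 14 were tested, 6 rose, 6 fell and 2 did not pass, with a median of 0.21. The organic anion carrier genes SLCO1A2 and SLCO3A1 rose by 2.66 and 1.90 (SLCO1A2 reached the filter's level through KO alone), SLCO4A1 fell by 1.86 and the nucleoside carrier gene SLC28A3 by 1.56. The bile acid carrier SLC10A2 was at 0 in all libraries, and SLC10A1, SLC51A and SLC51B were too low to be tested.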

How the data were processed

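Polyadenylated RNA of 2 HuCCT1 clones was sequenced from stranded TruSeq libraries, 3 per clone, per the labels' protocols. The authors deposited whole-number read counts per gene symbol, without normalization. Tools named in the submitters' processing notes are HISAT2, Trimmomatic 0.33, edgeR and FastQC, with hg38 as the build. How reads were counted, on which strand and with which annotation is not given in the sources used here, so overlapping and duplicated genes are uncertain. Library totals were 36925338 to 41724447 counts. Groups and letters came from the genotype and clone labels. Replicate pairs differed beyond sampling noise (chi-square per degree of freedom 4.18 to 7.6).

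The test was the quasi-likelihood F test of edgeR 4.0.16 (R 4.3.3), KO against WT with no covariate, after filterByExpr and TMM scaling (factors 0.98 to 1.024), with BH adjustment over 14405 genes, threshold 0.05. SEs are the log2 fold change over the square root of F. CPM used library totals. Counting intervals are exact binomial at 95%, and they and the floors (3 counts) cover counting error only. Steps were tested on simulated counts. Coordinates came from RefSeq GRCh38.p14, the assembly of hg38, where 23749 rows matched a current and 1539 an older symbol.

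The members and lists were chosen with earlier results of these data known. Values per library are given for members that passed at 2-fold or more and for 13 preset members, and the others by group mean, count or range, except that values per library of ABCC9, ABCG4, ABCF1, ABCA8, ABCD2 and TAP2 were added after they were seen. From each list up to 2 rises and 2 falls that passed are named, taken by size, with 5 preset receptor and NRF2 genes. TAP1, TAP2, CFTR, ABCA11P, SREBF1 and genes given as untested or as cell type markers were named after their values were seen. Some members and list genes enter the counts and sums but are not reported here by name. As alternatives, genes were tested by DESeq2 1.42.0 and limma-voom (3.58.1), with no filter or a minimum of 1 CPM in 3 libraries, with RLE factors or library totals alone, with the letters as a block, at an adjusted p of 0.01, and without each library in turn.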

Additional observations from a re-analysis of the deposited data

How the results depend on the processing

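Over 14 alternatives the 31 tested members gave 431 values, of which 412 kept their direction and their side of the threshold. Of the rest, 12 lost a call, 2 gained one and 5 changed sign, in ABCB1, ABCA12, ABCB8, ABCC1, ABCC9 and ABCC10. With a minimum of 1 CPM in 3 libraries, 19 of 28 tested members were called. There ABCB1, ABCA12 and ABCG4 were not tested and gave no value, so ABCB1 and ABCA12 had no call. The count of members called was 18 to 23 and the count at 2-fold or more 8 to 12. With each library left out in turn these were 20 to 23 and 8 to 12, with the low of 8 when KO library a was left out. Values near 0 changed sign: ABCC10 was 0.016 with library totals alone, and with a library left out it was -0.086 to 0.012, while ABCC1 was -0.26 to 0.028, above 0 without WT library a (0.012) or b (0.028). The cause was not tested. At an adjusted p of 0.01, ABCB1, ABCA12 and ABCB8 were not called. With the letters as a replicate block, 21 members were called and 10 at 2-fold or more, with 10599 genes called in all. Correlations between KO and WT libraries were -0.0195 to 0.0577 for the same letter and -0.05 to 0.0409 for different letters. With 3 libraries per clone these values cannot decide whether the letters pair the libraries. RLE factors and library totals alone placed the median of all genes at 0.020 and 0.059. The 15 untested members had 0 to 43 counts over a group, under the filter on low counts, and why they were low was not tested.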
